A study of Mus musculus with 11 samples.

Results

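The colony-stimulating factors are the 3 secreted proteins encoded by Csf1, Csf2 and Csf3, and their receptor chains are encoded by Csf1r, Csf2ra, Csf2rb and Csf3r. These 7 genes were chosen by name, and each was represented by the probe set of the deposited table whose platform annotation gives that symbol alone. Each gene had 1 such probe set, so all 7 of 7 were measured, out of 18755 genes in all. Transcripts were measured with Affymetrix mouse whole-transcript gene arrays in primary bone marrow macrophages, the mice being wild-type C57Bl/6. All cells had been grown for 1 week with 5 ng/ml mCSF, the labels' name for macrophage colony-stimulating factor, the protein that Csf1 encodes, and were used 24 hours after re-plating. They were given LPS at 100 ng/ml (lipopolysaccharide, an outer membrane molecule of bacteria that Toll-like receptors sense) plus 10 µM PGE (prostaglandin E, a signalling lipid) for 1 hour (4 arrays), or LPS alone for 1 hour (3 arrays), or were left untreated (4 arrays). Which prostaglandin E was used is not stated in the labels, there was no group given PGE without LPS, and every treated array was taken at the same time. The labels do not say whether replicates came from separate mice, so the p-values measure only the spread between these arrays.

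Macrophage colony-stimulating factor, from Csf1, signals through the receptor tyrosine kinase Csf1r and keeps macrophages alive and dividing. Granulocyte-macrophage colony-stimulating factor, from Csf2, binds Csf2ra, which pairs with the signalling chain Csf2rb and works through the kinase Jak2 and STAT proteins. Granulocyte colony-stimulating factor, from Csf3, drives neutrophil production through Csf3r. Macrophages carry these receptors and, once stimulated, can also make the factors.

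Levels are log2 values, on which 1 unit means 2-fold, and levels of different probe sets are not compared with each other. Across genes, which are no independent replicates, the correlation was 0.996 to 0.998 for arrays of 1 group and 0.98 to 0.993 for arrays of 2 groups. Changes are log2 fold changes ± SE from limma fitted to all 11 arrays and all 18755 genes, and genes with a p under 0.05 after Benjamini-Hochberg adjustment over all genes were taken to pass. The 3 comparisons share arrays, so their values are given side by side and not as independent evidence. In LPS against untreated cells 13.2% of all genes passed (6.55% higher, 6.69% lower), in LPS plus PGE against untreated cells 31.7% (13.8% higher, 17.9% lower), and in LPS plus PGE against LPS cells 24.7% (11.9% higher, 12.9% lower). All 12 measured macrophage markers lay above the array median, from Mrc1 (mean level 9.50) to the lysozyme gene Lyz2 (13.01). Of the markers of other cells, 8 of 11 for neutrophils, 6 of 9 for dendritic cells, 4 of 5 for B cells, 6 of 7 for T and NK cells, 5 of 8 for mast cells and basophils, and 6 of 10 for stroma and endothelium had a mean below it. The highest of each were the collagenase gene Mmp8 (10.16), the class II gene H2-Ab1 (11.60), Cd79b (6.57), Cd4 (7.25), Gata2 (6.19) and Kdr (5.86). In cultures measured whole, fewer cells of a type and less RNA per cell cannot be told apart.

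Among the ligands, Csf1 and Csf2 rose within the hour of LPS, and Csf3 rose under LPS with PGE, over LPS cells as well as over untreated cells. Thus 2 of the 7 genes rose in LPS against untreated cells, where 6.55% of all genes did, and 3 of 7 in LPS plus PGE against untreated cells, where 13.8% did. In LPS plus PGE against LPS cells 1 of 7 rose, where 11.9% of all genes did (24.7% passed in either direction). Each of these rises exceeded 2-fold, which 1.57% of all genes did upwards after LPS (1.93% in either direction), 1.86% after LPS with PGE (2.97%) and 0.565% in LPS plus PGE against LPS cells (0.714%). The arrays of the groups compared did not overlap for 2 of the 7 genes after LPS (23.1% of all genes), for 3 of 7 after LPS with PGE against untreated cells (35.1%) and for 4 of 7 in LPS plus PGE against LPS cells (33.9%). The untreated levels of Csf2 and Csf3 lay above the lower quartile of the arrays (3.61 to 3.76) and below their median (5.03 to 5.18). Background was not measured, so a level that low was not told from none, and rises of these genes may be understated. The LPS levels of Csf3 lay in the same range, so this holds for its rise over LPS as well as for the rises over untreated cells.

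**Figure D1:**
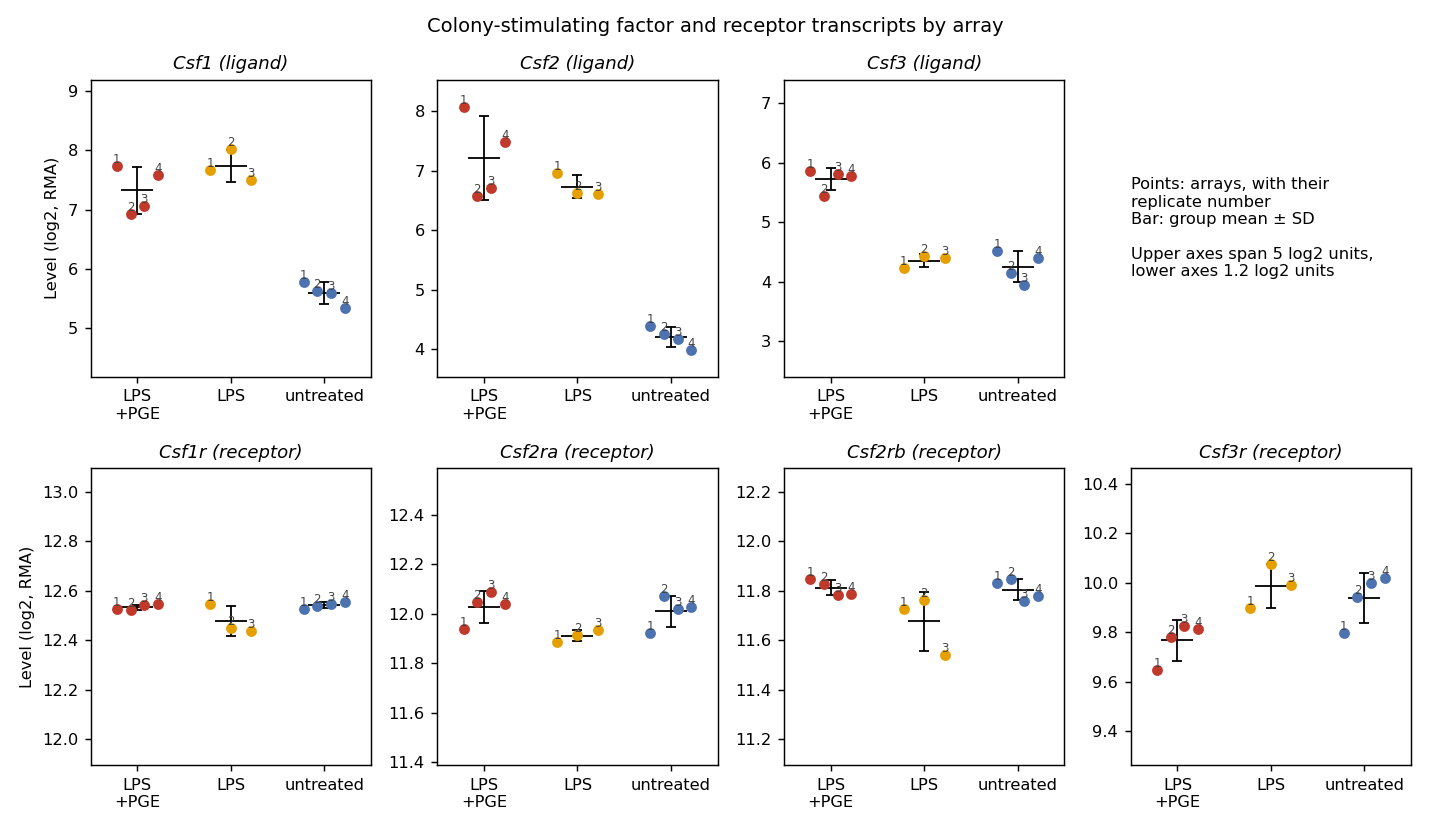
Level of each gene (log2, RMA) on each array, with LPS plus PGE, LPS and untreated arrays from left to right; points are arrays with their replicate number and bars are the group mean ± SD (n = 4, 3 and 4). The axes of the ligands span more log2 units than those of the receptors, and Csf3 is raised on the 4 LPS plus PGE arrays alone, at 5.44 to 5.86.

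Csf1 had levels of 7.73, 6.92, 7.06 and 7.59 on the LPS plus PGE arrays, 7.67, 8.03 and 7.50 on the LPS arrays, and 5.79, 5.63, 5.60 and 5.35 on the untreated arrays. Every treated array was above every untreated one, while the ranges of the 2 treated groups overlapped. LPS raised Csf1 4.41-fold, a change of 2.14 ± 0.19 (limma adjusted p = 9.64e-06), the 113th largest rise of 18755 genes. LPS with PGE raised it 3.32-fold over untreated cells (1.73 ± 0.18, limma adjusted p = 1.78e-05). The mean was 7.33 ± 0.40 (SD, n = 4) in LPS plus PGE cells and 7.73 ± 0.27 (SD, n = 3) in LPS cells, and that change of -0.41 ± 0.20 did not pass (limma adjusted p = 0.141, 95% interval -0.83 to 0.02). Over the 21 alternative fits it was -0.55 to -0.25 and passed in none.

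Csf2 had levels of 8.08, 6.58, 6.70 and 7.49 on the LPS plus PGE arrays, 6.96, 6.62 and 6.62 on the LPS arrays, and 4.39, 4.25, 4.16 and 3.99 on the untreated arrays. Both treated groups were clear of the untreated one. Within the LPS plus PGE group, replicates 1 and 4 were the 2 highest arrays for Csf1 and for Csf2 alike, and the SD of Csf2 there was 0.71, against 0.20 on LPS arrays. LPS raised Csf2 5.80-fold (2.54 ± 0.29, limma adjusted p = 7.2e-05, the 81st largest rise). LPS with PGE raised it 8.09-fold over untreated cells (3.02 ± 0.27, limma adjusted p = 4.55e-06). Against LPS alone the change of 0.48 ± 0.29 did not pass (limma adjusted p = 0.24), and its 95% interval of -0.15 to 1.11 includes both no change and a 2-fold rise. Without LPS plus PGE replicate 1 it was 0.19, and over all arrays left out in turn it ranged from 0.19 to 0.69 and passed in none.

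Csf3 had levels of 5.86, 5.44, 5.81 and 5.77 on the LPS plus PGE arrays, 4.23, 4.43 and 4.40 on the LPS arrays, and 4.52, 4.15, 3.94 and 4.39 on the untreated arrays. All LPS plus PGE arrays stood above all others, and the LPS arrays lay within the untreated range. LPS with PGE raised Csf3 2.58-fold over LPS (1.37 ± 0.14, limma adjusted p = 6.39e-05, the 56th largest rise) and 2.78-fold over untreated cells (1.47 ± 0.13, limma adjusted p = 3.26e-06). After LPS alone the change was 0.10 ± 0.14 (limma adjusted p = 0.687, 95% interval -0.19 to 0.40).

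Of the marker lists of other cells, that of mast cells and basophils was higher on every LPS plus PGE array than on every other array, as Csf3 was. The mean level over the 8 measured mast cell and basophil markers was 4.28 to 4.40 on LPS plus PGE arrays, 3.91 to 4.19 on LPS arrays and 3.90 to 3.95 on untreated arrays. Of these 8, the transcription factor gene Gata2 (1.23 ± 0.15 over LPS) and the histamine enzyme gene Hdc (1.47 ± 0.10) rose over LPS and none fell. These genes were named after their values were seen. The mast cell protease gene Mcpt4, the basophil protease gene Mcpt8 and the IgE receptor gene Ms4a2 were below the lower quartile on all 11 arrays, the IgE receptor gene Fcer1a on 10 and the mast cell peptidase gene Cpa3 on 4. None of these 5 passed (limma adjusted p 0.224 to 0.771 for LPS plus PGE against LPS), nor did Kit (limma adjusted p = 0.523). In the other lists, the dendritic cell marker Ccr7 (0.66 ± 0.17), the B cell marker Pax5 (0.30 ± 0.10) and the stromal markers Col3a1 (0.44 ± 0.07) and Pdgfrb (0.33 ± 0.11) rose over LPS. The dendritic cell marker Cd209a (-0.31 ± 0.10), the NK cell marker Klrb1c (-0.97 ± 0.18) and the neutrophil marker Cxcr2 (-0.45 ± 0.09) fell. After quantile and cyclic loess normalization neither Pax5 (limma adjusted p = 0.536 and 0.318) nor Pdgfrb (0.347 and 0.183) passed. Cd209a passed under neither of these nor with equal array medians (limma adjusted p 0.188 to 0.438). The part of these markers in the Csf3 result was not tested.

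The ligand genes were also compared with each other within arrays, as the log2 difference between 2 genes and its change between groups, over 3 pairs in 3 comparisons. The two-sided exact permutation test planned for these 9 values could not have passed: its smallest p is 0.0571 for 3 against 4 arrays and 0.0286 for 4 against 4, and adjusted over the 9 it cannot go below 0.0571. The values are therefore a description. Between LPS and untreated cells, the change of Csf3 minus that of Csf2 was -2.43 on the log2 scale, and minus that of Csf1 -2.03, with no overlap between arrays. Between LPS plus PGE and LPS cells, Csf3 changed by 1.78 more than Csf1 and Csf2 by 0.89 more than Csf1, again with no overlap, and Csf3 minus Csf2 changed by 0.89 with overlap. Between LPS plus PGE and untreated cells, Csf2 changed by 1.28 more than Csf1 without overlap, and the change of Csf3 minus that of Csf2 was -1.54.

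The 250 bases before the RefSeq start of 4 of the genes were read from RefSeq (GRCm38.p6), and 3 are shown, those of the 2 ligand genes that LPS raised and that of a receptor gene that did not pass, written 5′ to 3′ on the gene's strand. Capitals mark matches on either strand to an NF-kB-type pattern (GGG and CC parted by any 5 bases), TGACG (the core of the cyclic AMP response element), TGANTCA (AP-1), AGATTCC (the core of the CK-1 element known from cytokine genes) or TATAAA (the TATA box). Csf1 is at chr3:107760470-107760719 (minus strand), Csf2, whose RefSeq record lists a curated and a predicted transcript and whose window lies before the outermost start, at chr11:54249900-54250149 (minus strand) and Csf2ra at chr19:61228419-61228668 (minus strand).
Csf1: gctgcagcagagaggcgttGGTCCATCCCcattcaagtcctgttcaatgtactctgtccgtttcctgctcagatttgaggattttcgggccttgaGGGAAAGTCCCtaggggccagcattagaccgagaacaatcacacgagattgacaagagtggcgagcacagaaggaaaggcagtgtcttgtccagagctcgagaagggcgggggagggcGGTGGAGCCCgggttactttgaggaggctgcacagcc
Csf2: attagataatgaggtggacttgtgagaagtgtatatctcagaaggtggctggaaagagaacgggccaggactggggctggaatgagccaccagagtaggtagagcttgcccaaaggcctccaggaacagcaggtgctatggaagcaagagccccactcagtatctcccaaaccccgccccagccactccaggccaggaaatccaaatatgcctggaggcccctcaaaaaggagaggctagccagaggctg
Csf2ra: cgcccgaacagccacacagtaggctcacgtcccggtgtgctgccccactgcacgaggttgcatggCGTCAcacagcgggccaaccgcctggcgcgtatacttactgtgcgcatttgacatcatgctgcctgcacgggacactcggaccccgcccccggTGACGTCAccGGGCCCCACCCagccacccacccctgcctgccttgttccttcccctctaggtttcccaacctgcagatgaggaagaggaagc
The Csf1 window held 4 matches to the NF-kB-type pattern, 2 of them overlapping, and no other match. The Csf2 window held none of the 5 patterns. The start of its curated transcript may differ from the outermost one, and bases between these starts were not read. The Csf2ra window held 3 TGACG matches, 2 of them overlapping on opposite strands, and 2 overlapping NF-kB-type matches. The window of the receptor gene Csf3r, read but not shown, held 1 NF-kB-type match and no other match. No window was available for Csf3. Of 32851 such windows 45.8% held the NF-kB-type pattern, 17.8% TGACG, 6.75% TGANTCA, 3.14% AGATTCC and 12.4% TATAAA. A match is a description of letters and not a site, and no match says only that these letters are not in this window.

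No receptor gene passed in any of the 3 comparisons in the main limma fit, made without pairing on the values as deposited. The group means of each spanned at most 0.22. Csf2rb and Csf3r passed in some alternative fits to the same values. With equal array medians, where the median change of all genes was 0.15 in LPS plus PGE against LPS cells, Csf1r (0.21), Csf2ra (0.27) and Csf2rb (0.29) passed as higher in that comparison (limma adjusted p = 0.0204, 0.016 and 0.0146). Csf1r, the receptor tyrosine kinase for macrophage colony-stimulating factor, had a mean level of 12.53 ± 0.01 in LPS plus PGE cells (SD, n = 4), 12.48 ± 0.06 in LPS cells (SD, n = 3) and 12.54 ± 0.01 in untreated cells (SD, n = 4). Its changes were -0.06 ± 0.05 after LPS (95% interval -0.18 to 0.05), -0.01 ± 0.05 after LPS with PGE (-0.11 to 0.10) and 0.06 ± 0.05 between the treated groups (-0.06 to 0.17). The limma adjusted p-values of these changes were 0.486, 0.911 and 0.447. The array placed Csf1r above 99.2% or more of its probe sets in every sample, and how linear the array signal is at that level was not measured.

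Csf2ra, the binding chain for granulocyte-macrophage colony-stimulating factor, had levels of 11.94, 12.05, 12.09 and 12.04 on LPS plus PGE arrays, 11.89, 11.92 and 11.93 on LPS arrays and 11.92, 12.07, 12.02 and 12.03 on untreated arrays. Csf2rb, the signalling chain, had 11.85, 11.83, 11.79 and 11.79 on LPS plus PGE arrays, 11.73, 11.76 and 11.54 on LPS arrays and 11.83, 11.85, 11.76 and 11.78 on untreated arrays. For both genes every LPS plus PGE array was above every LPS array, as groups fail to overlap for 33.9% of all genes in that comparison, but the gaps were small. The changes were 0.12 ± 0.06 for Csf2ra (limma adjusted p = 0.171) and 0.14 ± 0.06 for Csf2rb (limma adjusted p = 0.139). Against untreated cells neither passed, with changes of -0.10 ± 0.06 and -0.13 ± 0.06 after LPS (limma adjusted p = 0.331 and 0.236) and 0.02 ± 0.05 and 0.01 ± 0.06 after LPS with PGE (limma adjusted p = 0.837 and 0.937). Csf2rb has a near-identical copy in the mouse, Csf2rb2, which encodes a chain specific to interleukin-3, so which of them the signal came from is uncertain.

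Csf3r, the receptor for granulocyte colony-stimulating factor, came nearest to passing. It had levels of 9.65, 9.78, 9.83 and 9.81 on LPS plus PGE arrays, 9.90, 10.07 and 9.99 on LPS arrays, and 9.80, 9.94, 10.00 and 10.02 on untreated arrays. The LPS plus PGE arrays were all below the LPS arrays and overlapped the untreated ones. The change was -0.22 ± 0.08 against LPS (limma adjusted p = 0.0501, 95% interval -0.38 to -0.06) and -0.17 ± 0.07 against untreated cells (limma adjusted p = 0.0774), and 0.05 ± 0.08 after LPS alone (limma adjusted p = 0.743). Against LPS it passed in 5 of 21 alternative fits and failed in the others, whose adjusted p reached 0.629. After equal array medians the change was -0.06, after cyclic loess normalization -0.14 and after quantile normalization -0.17. Csf3r is best known from neutrophils, and the mean level over the 11 measured neutrophil markers was 4.79 to 4.90 on LPS plus PGE arrays, 4.78 to 5.04 on LPS arrays and 4.79 to 4.81 on untreated arrays. Of these markers the chemokine receptor gene Cxcr2 (0.44 ± 0.09) and the secreted factor gene Retnlg (0.36 ± 0.10) rose after LPS, and Cxcr2 fell in LPS plus PGE against LPS cells. The other measured neutrophil markers did not pass after LPS (limma adjusted p 0.235 to 0.943). Cxcr2 had means of 3.94 in LPS plus PGE, 4.39 in LPS and 3.95 in untreated cells, below the array medians (5.03 to 5.18). Retnlg was below the lower quartile on all 11 arrays, and with equal array medians its rise did not pass (adjusted p = 0.0557). The part of the neutrophil markers in these results was not tested.

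**Figure D2:**
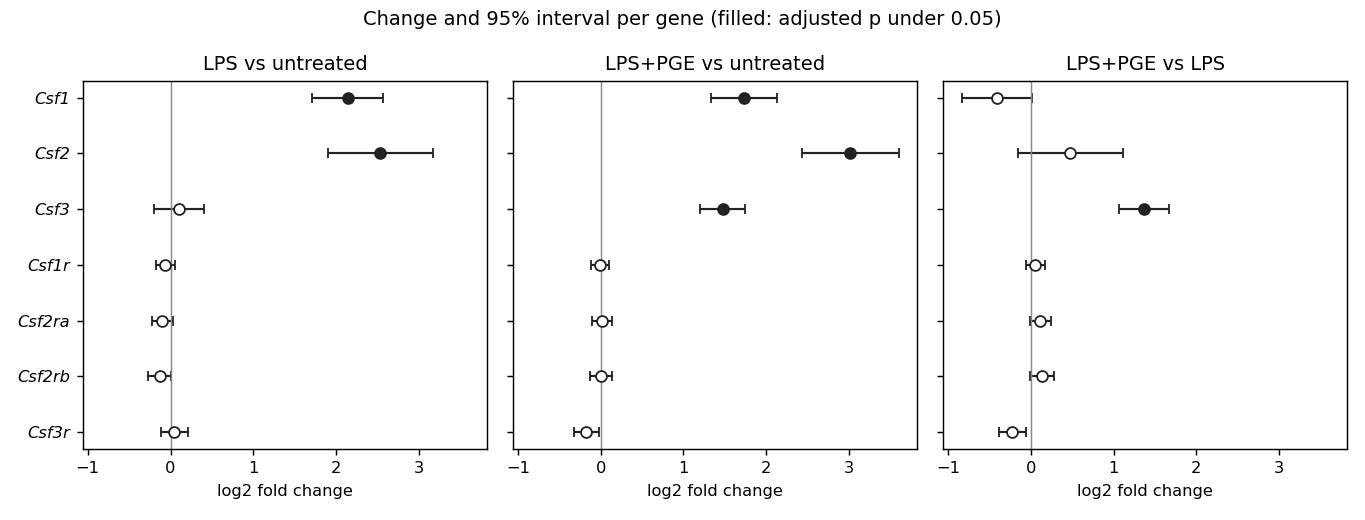
Log2 fold change of each gene with its 95% interval from limma in the 3 comparisons; filled points passed at an adjusted p under 0.05. The rises of Csf1 and Csf2 (2.14 and 2.54 after LPS) and of Csf3 (1.37 for LPS plus PGE against LPS) stand apart from the receptors, whose points lie between -0.22 and 0.14.

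The cytokines and receptors next to this family in function mostly did not pass. Of the 10 measured, none passed after LPS, where 13.2% of all genes did. Under LPS with PGE 1 of 10 fell in each comparison (31.7% of all genes passed against untreated cells and 24.7% against LPS), Kitl, the ligand of the receptor Kit (6.92 ± 0.18 in LPS plus PGE cells, against 7.27 ± 0.12 in LPS cells and 7.25 ± 0.12 in untreated cells). Its changes were -0.35 ± 0.11 against LPS (limma adjusted p = 0.0322) and -0.33 ± 0.10 against untreated cells (limma adjusted p = 0.023), and neither passed after equal array medians, quantile or cyclic loess normalization (adjusted p 0.0889 to 0.26). With equal array medians, which raised the median change of all genes under PGE, none fell, and Il3, Kit and Flt3 passed as higher against untreated cells (0.39, 0.30 and 0.50) and Il3 against LPS (0.49). The median change of the 10 was 0.02, 0.08 and 0.00 in the 3 comparisons, against -0.01, 0.02 and 0.00 over all genes.

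Il34, whose product is the other ligand of Csf1r, had levels of 3.55 to 4.04 on LPS plus PGE arrays, 3.46 to 4.11 on LPS arrays and 3.48 to 3.65 on untreated arrays, and it did not pass (limma adjusted p 0.189 to 0.635). Il3, which lies next to Csf2 on chromosome 11, had 3.39 to 3.82 on LPS plus PGE arrays, 3.03 to 3.52 on LPS arrays and 3.18 to 3.39 on untreated arrays, without passing (limma adjusted p 0.0748 to 0.783). P4ha2, the neighbour of Csf2 on its other side, changed by 0.05 ± 0.09 after LPS, and the neighbours of Csf3, Psmd3 and Med24, by -0.13 ± 0.06 and -0.11 ± 0.07 in LPS plus PGE against LPS cells; none of these passed (limma adjusted p = 0.784, 0.112 and 0.27). These neighbours were chosen after the values of the ligands were seen. Il34 was below the lower quartile on 8 of the 11 arrays, and the interleukin genes Il3 and Il5 and the receptor gene Il5ra on 10, 11 and 11.

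Csf2rb2 kept a level of 12.01 to 12.14 on LPS plus PGE arrays, 12.01 to 12.20 on LPS arrays and 12.09 to 12.16 on untreated arrays (limma adjusted p 0.628 to 0.879). The interleukin-3 receptor chain gene Il3ra was at 8.41 to 8.53, 8.35 to 8.49 and 8.38 to 8.49 in the same groups (limma adjusted p 0.831 to 0.986). The related receptor kinase genes Kit (0.18 ± 0.09 in LPS plus PGE against untreated cells, 0.26 ± 0.10 after LPS) and Flt3 (0.38 ± 0.15 and 0.33 ± 0.16) and the ligand gene Flt3l (-0.08 ± 0.06 and 0.02 ± 0.07) did not pass either (limma adjusted p 0.0738 to 0.882).

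Downstream of the receptors, genes known as STAT targets were examined. Of 15 measured, 10 rose and none fell after LPS, 11 rose and none fell after LPS with PGE against untreated cells, and 4 rose and 2 fell in LPS plus PGE against LPS cells. Of all genes 6.55%, 13.8% and 11.9% rose in these comparisons, and the list's median change was 0.65, 0.99 and 0.09, against -0.01, 0.02 and 0.00 over all genes. After LPS the largest rises were those of the signalling inhibitor Socs3 (5.90 ± 0.12), the growth regulator Myc (3.06 ± 0.09) and the kinase gene Pim1 (2.48 ± 0.07), with limma adjusted p-values of 1.28e-11 to 2.58e-10. PGE raised further Osm, the cytokine oncostatin M (11.19 in LPS plus PGE cells, 8.64 in LPS cells and 6.94 in untreated cells, a change of 2.55 ± 0.10 over LPS, limma adjusted p = 2.32e-08). Cish, an inhibitor that STAT proteins induce, was at 8.37, 6.83 and 5.16 in those groups and rose by 1.54 ± 0.13 over LPS (limma adjusted p = 1.05e-05), and the inhibitor Socs1 rose by 1.18 ± 0.15 (limma adjusted p = 0.000431). Myc (-0.40 ± 0.09) and the survival gene Bcl2l1 (-0.26 ± 0.06) were the 2 falls against LPS. Neither passed after equal array medians, where 8 of the list rose and none fell, or after cyclic loess normalization. After quantile normalization Myc passed (limma adjusted p = 0.0152) and Bcl2l1 did not (0.125). Many stimuli other than colony-stimulating factors act on these genes.

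**Figure D3:**
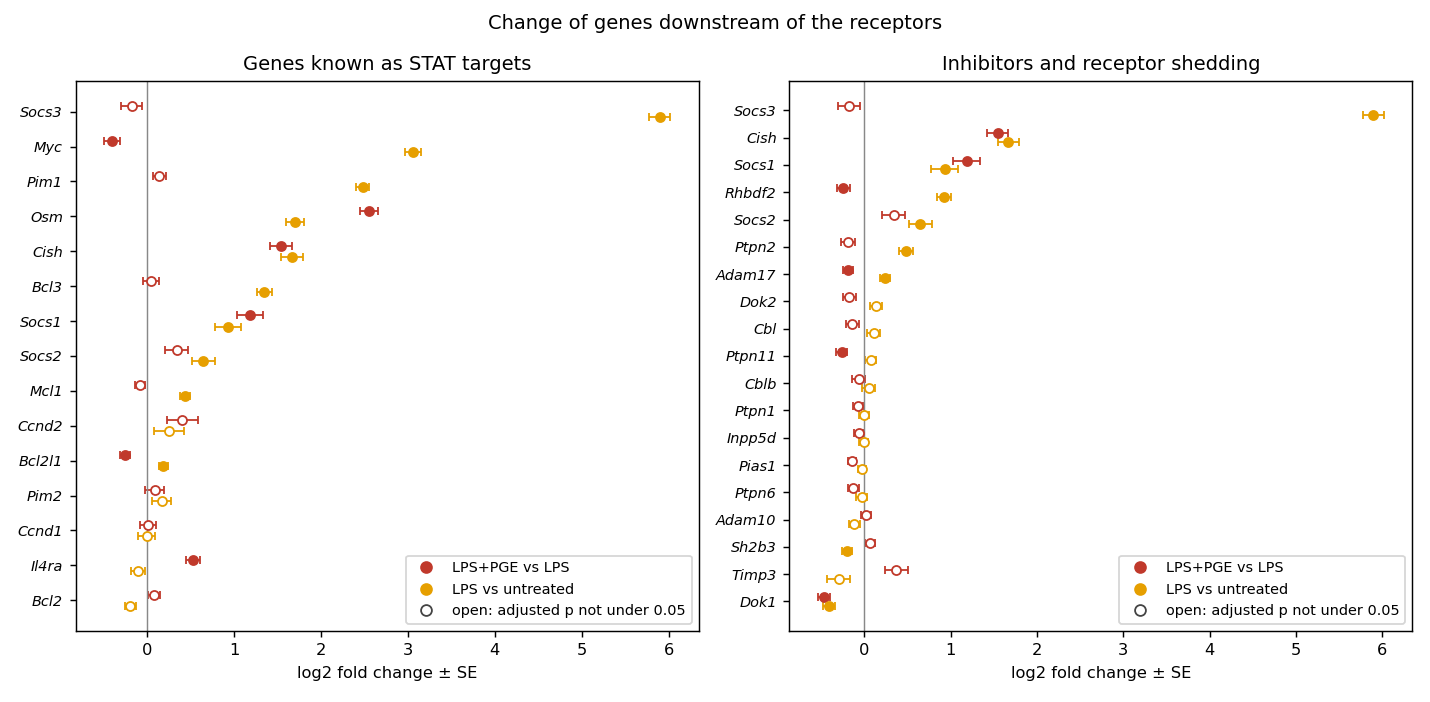
Log2 fold change ± SE from limma of the measured STAT target genes (left) and of the phosphatases, inhibitors and receptor-shedding genes (right). LPS plus PGE against LPS is red and LPS against untreated cells amber, and open points did not pass. Osm, Cish and Socs1 rose in both comparisons, while Socs3 rose by 5.90 after LPS and changed by -0.18 with PGE.

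Among 19 measured phosphatases, inhibitors and receptor-shedding genes, 7 rose and 2 fell after LPS. After LPS with PGE 6 rose and 3 fell against untreated cells, and 2 rose and 4 fell against LPS cells. The median changes were 0.07, -0.03 and -0.13. The shares that passed were 47.4%, 47.4% and 31.6%, against 13.2%, 31.7% and 24.7% of all genes. Socs3, Cish and Socs1 led the rises in both comparisons with untreated cells, and Cish and Socs1 were the 2 rises against LPS cells. Socs3, Cish, Socs1 and Socs2 are also in the list of STAT targets, so their rises are counted in both lists. The adaptor Dok1 fell in each comparison, with 7.64 in LPS plus PGE cells, 8.10 in LPS cells and 8.51 in untreated cells (-0.47 ± 0.07 against LPS, limma adjusted p = 0.00131). Rhbdf2, which is needed in the mouse for the protease that sheds Csf1r from macrophages, rose by 0.92 ± 0.08 after LPS (limma adjusted p = 4.86e-06). It was lower by 0.24 ± 0.08 on the log2 scale with PGE (change -0.24, limma adjusted p = 0.042), which passed under none of equal array medians, quantile and cyclic loess normalization. The same was true of the phosphatase Ptpn11 (-0.26 ± 0.07 against LPS), and with equal array medians 5 of the 19 rose and 1 fell.

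Of 21 measured kinases, adaptors and STAT genes of the signal relay, 3 rose and none fell after LPS, 5 rose and 2 fell after LPS with PGE against untreated cells, and 1 rose and 3 fell in LPS plus PGE against LPS cells, with medians of 0.14, -0.01 and -0.05. The shares that passed, 14.3%, 33.3% and 19.0%, were near those of all genes (13.2%, 31.7% and 24.7%). With equal array medians 5 rose and none fell in LPS plus PGE against LPS cells. The rises after LPS were those of the kinase gene Src (0.69 ± 0.09) and of the lipid kinase subunits Pik3r1 (0.49 ± 0.07) and Pik3cb (0.24 ± 0.05). Jak2, the kinase bound to Csf2rb, had levels of 10.11 ± 0.28 in LPS plus PGE cells, 9.11 ± 0.14 in LPS cells and 8.74 ± 0.08 in untreated cells (SD, n = 4, 3 and 4). It rose by 1.00 ± 0.13 over LPS (limma adjusted p = 0.000449) and by 1.37 ± 0.12 over untreated cells (limma adjusted p = 4.07e-06), while 0.37 ± 0.13 after LPS alone did not pass (limma adjusted p = 0.0898). The adaptor Gab1 (0.47 ± 0.11) rose, and the kinase genes Akt1 (-0.23 ± 0.05) and Tyk2 (-0.23 ± 0.06) fell, against untreated cells. With equal array medians neither fall passed (limma adjusted p = 0.223 and 0.21). That of Akt1 passed after quantile and cyclic loess normalization (limma adjusted p = 0.0047 and 0.0269), that of Tyk2 after quantile normalization (0.0323) but not cyclic loess (0.248). Src (-0.33 ± 0.09), Tyk2 (-0.30 ± 0.07) and Stat5a (-0.24 ± 0.08) fell against LPS, and with equal array medians or cyclic loess normalization none of these 3 passed. After quantile normalization Tyk2 passed (limma adjusted p = 0.037), and Src (0.209) and Stat5a (0.24) did not.

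The genes whose profile over the 11 arrays was most like that of each ligand were found by the root mean square difference between profiles, after each gene was centred on its own mean, among 17646 genes (the 7 members, unnamed predicted genes and small RNA genes were left out). For Csf1 these were the receptor gene Gpr85 (0.196), the transcription factor gene Tfec (0.206) and the chemokine gene Ccl22 (0.216). Gpr85 changed by 2.21 ± 0.14 after LPS and by -0.57 ± 0.14 with PGE, and Ccl22 by 2.19 ± 0.23 and -0.84 ± 0.23. Tfec changed by 1.75 ± 0.18 and -0.25 ± 0.18, of which the second did not pass (limma adjusted p = 0.319). For Csf2 they were the endothelin receptor gene Ednrb (0.279), the adaptor gene Traf1 (0.309) and the adhesion gene Pvr (0.350). Ednrb changed by 2.35 ± 0.16 after LPS and 0.76 ± 0.16 with PGE, and Pvr by 2.51 ± 0.11 and 0.71 ± 0.11. Traf1 changed by 2.77 ± 0.15 and 0.12 ± 0.15, of which the second did not pass (limma adjusted p = 0.554). For Csf3 they were Lin54 (0.147), Isy1 (0.159) and the lactate transporter gene Slc16a3 (0.176). Slc16a3 changed by 0.22 ± 0.10 after LPS (limma adjusted p = 0.186) and by 1.05 ± 0.10 with PGE (limma adjusted p = 3.99e-05). All these genes were chosen for their likeness on the same arrays. Their changes therefore follow from the choice and are a description, not separate support. The group means of the receptor genes spanned less than 1 on the log2 scale, from 0.06 for Csf1r to 0.22 for Csf3r, so no such search was made for them.

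**Figure D4:**
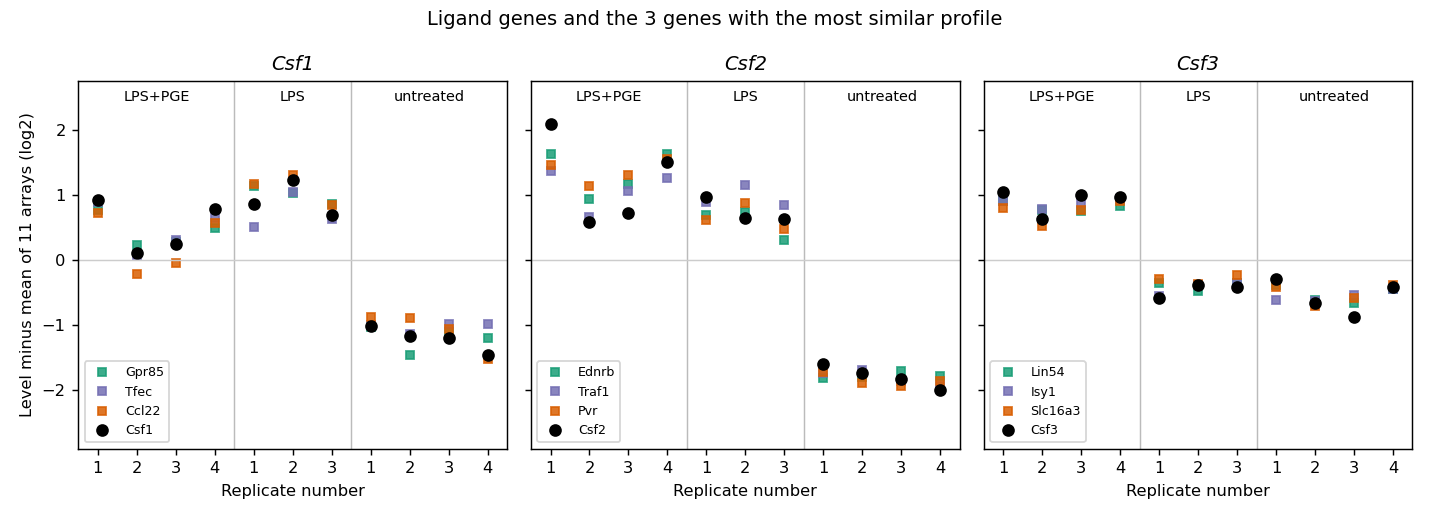
Level of each ligand gene (black) and of the 3 genes with the most similar profile (coloured squares) on each array, each minus its own mean over the 11 arrays, with LPS plus PGE, LPS and untreated arrays from left to right. The LPS and untreated arrays lie apart for Csf1 and Csf2 and together for Csf3, whose 3 neighbours are within a root mean square difference of 0.147 to 0.176.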

How the data were processed

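The values are log2 expression levels per probe set, as deposited by the authors. Their scale was inferred from the range (1.20 to 13.81) and from RMA, which corrects background, normalizes and summarizes and which the submitters' processing notes list. Partek, R 2.13.1 and Affymetrix Power Tools are listed there too, with no role. The authors left out 1 LPS array of 12 for quality, per the series' design text. The genome build was not stated.

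Of 35309 probe sets, 21143 carried 1 gene symbol, and the one with the highest mean per gene gave 18755 genes. With limma 3.58.1 (R 4.3.3), 1 mean per group was estimated from the 11 arrays together, with 8 residual and 3.77 prior degrees of freedom and no pairing; permutation tests used scipy 1.17.1 and figures matplotlib 3.10.9. Precision is limited by the number of arrays. The members, lists and tests were chosen with earlier results of these data known. Named genes are the members, all 10 relatives, the 3 largest rises and falls that passed per list, the extreme markers, and the 3 most similar profiles. On simulated data (18755 genes, 200 changed, LPS against untreated) changes of 1 were recovered at 93% and of 0.5 at 68%, with 12 false calls. The simulated noise was independent between arrays, and in the real data 13.2% of genes passed in that comparison. These rates therefore need not hold for the real data. Listed genes without a single-symbol probe set were not analysed here.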

Additional observations from a re-analysis of the deposited data

How the results depend on the processing

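The rises of Csf1, Csf2 and Csf3 that passed kept their direction and passed in all 21 alternative fits (other normalizations, variance models, gene sets, a replicate block and each array left out), with changes of 1.99 to 2.26 for Csf1 and 2.40 to 2.60 for Csf2 after LPS and 1.28 to 1.53 for Csf3 in LPS plus PGE against LPS cells. No change that passed reversed; against untreated cells the LPS plus PGE changes of Csf1r (-0.01 to 0.12), Csf2ra (-0.01 to 0.14) and Csf2rb (-0.02 to 0.13) lay on both sides of 0. Csf3r against LPS passed with a trended and robust variance (-0.22, adjusted p = 0.0151), with the dimmest genes left out (-0.22, adjusted p = 0.0346) and with the replicate block (-0.24, adjusted p = 0.0203). With arrays left out in turn it ranged from -0.27 to -0.18 and passed without LPS replicate 1 (0.0458) or untreated replicate 1 (0.0395). Csf3r against untreated cells passed with the trended variance (-0.17, adjusted p = 0.0285), the replicate block (-0.17, adjusted p = 0.0345) and without untreated replicate 1 (0.0341; range -0.22 to -0.13). Equal array medians raised the median change of all genes to 0.143 in LPS plus PGE against untreated cells and to 0.154 against LPS. There Csf1r (0.21), Csf2ra (0.27) and Csf2rb (0.29) passed against LPS, and the calls split into 5850 higher and 718 lower (2225 and 2416 as deposited), and against untreated cells into 5747 and 1724 (2587 and 3359). Csf2rb also passed with the trended variance (0.14, adjusted p = 0.0432). Genes passing numbered 1899 (quantile) and 2173 (cyclic loess) in LPS plus PGE against LPS cells, of 4641 as deposited, 2945 without LPS replicate 3 (2945 to 4455 over the arrays left out), and 3897 (cyclic loess) of 5946 against untreated cells. Leaving out the dimmest genes split the calls into 1260 higher and 2828 lower against LPS and 1759 and 3743 against untreated cells. With a 2-fold threshold 362, 557 and 134 genes passed. Same-numbered arrays of different groups had correlated deviations of -0.02 to 0.21 (median 0.126, 10 pairs), against -0.14 to 0.10 (median -0.038) for others. Same-numbered arrays thus tended to be more alike than others, though not every pair exceeded 0.1, and the labels do not say what they share. The main fit had no pairing because the labels give none. The replicate block, given only here, gave 2454, 6124 and 4698 genes.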

Other observations

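No receptor gene passed in the main fit, where Csf3r came nearest (limma adjusted p = 0.0501 in LPS plus PGE against LPS cells) and passed in some alternative fits. A list of transcription factors, some of myeloid identity and some known to act on the receptor genes, was also examined. Of 18 measured, 7 rose and 2 fell after LPS, 9 rose and 4 fell after LPS with PGE against untreated cells, and 4 rose and 3 fell in LPS plus PGE against LPS cells, with medians of 0.07, 0.24 and 0.03. The shares that passed were 50.0%, 72.2% and 38.9%, against 13.2%, 31.7% and 24.7% of all genes. With equal array medians 11 rose and 3 fell after LPS with PGE against untreated cells, and 8 rose and 1 fell against LPS. The immediate-early factor Egr1 (4.88 ± 0.11), Fos (2.60 ± 0.13) and Ets2 (2.38 ± 0.07) led the rises after LPS, and the largest of their limma adjusted p-values was 2.86e-08. The others that rose after LPS were Egr2, Jun, Cebpb and Irf4, and Cebpa and Maf fell. Spi1, Runx1, Fli1, Irf8, Gfi1 and Myb were among those that did not pass after LPS (limma adjusted p 0.145 to 0.912). Klf4, a factor of monocyte differentiation, had mean levels of 8.79 in LPS plus PGE cells, 6.88 in LPS cells and 6.51 in untreated cells, a change of 1.90 ± 0.12 over LPS (limma adjusted p = 1.57e-06), with 0.37 ± 0.12 after LPS alone (limma adjusted p = 0.0633). Egr2 was at 11.15, 11.76 and 9.43 in those groups and fell by 0.60 on the log2 scale with PGE (limma adjusted p = 0.000163), also with equal array medians (-0.45).

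Spi1, which encodes the factor PU.1 that drives Csf1r, fell in LPS plus PGE against LPS cells (-0.18 ± 0.06, limma adjusted p = 0.0426), but not with equal array medians (-0.02). After quantile and cyclic loess normalization this fall passed (-0.20 and -0.19, limma adjusted p = 0.0337 and 0.0424). Cebpa, a factor of granulocyte and monocyte development that acts on Csf3r, fell by 0.49 on the log2 scale after LPS and by 0.58 after LPS with PGE against untreated cells (limma adjusted p = 0.00519 and 0.000472). It passed in both under equal array medians, quantile and cyclic loess normalization, with changes of -0.57 to -0.46.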
